A study of Mus musculus with 24 samples.

Results

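The effect of transverse aortic constriction (TAC) on the left ventricle of the mouse was compared between days 4 and 7 after the operation, as the TAC effect at day 7 minus the TAC effect at day 4. TAC narrows the aorta and loads the left ventricle with pressure, and the controls had a sham operation. The comparison used 12 of the 24 RNA-seq libraries of the series, 3 each of sham at day 4, TAC at day 4, sham at day 7 and TAC at day 7, and covered the 13816 genes, of 24015 in the count table, that passed a filter on low counts. The other 12 libraries, of days 2 and 21, entered the model for its estimate of spread and serve below to place single genes in time. The tissue was frozen ventricle, and no label gives a strain, age, sex, genotype or hour of harvest. Nor do the labels state that replicates came from separate animals, and where they did not the p-values reflect the spread of these samples alone, which may be technical.

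After pressure overload the ventricle first goes through a phase of myocyte stress and immune cell entry, and fibroblasts deposit matrix. Capillaries grow along with the muscle, which needs endothelial cells to sprout under the control of receptors such as those for VEGF, apelin and semaphorins and of ETS family transcription factors. Endothelial cells rest on a basement membrane of type IV collagen and laminins, whereas the scaffold between the muscle fibres is made of fibrillar collagens.

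Throughout, an effect is the log2 fold change of TAC over sham, a difference is the log2 effect at day 7 minus the log2 effect at day 4, and both are given ± standard error (SE). Levels are counts per 1000000 reads (CPM), scaled with TMM factors (the trimmed mean of M-values method). Rose, fell and called are used of an adjusted p under 0.05, from edgeR's quasi-likelihood test and adjusted by Benjamini-Hochberg over every gene tested.

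Depth was 11.8 to 17.6 M (1000000) counted reads in the 12 libraries. Ventricular Myl2 was at 3093 to 7832 CPM in all of them, as the label of the tissue has it. TAC day 7 replicate 1 stood apart: it held the atrial light chain gene Myl7 at 60.6 CPM, against 0 and 7.09 CPM in the other TAC libraries of day 7. The defining atrial genes were not called for the difference, 1 of 10, Bmp10, was at 0 in all 4 groups, and their summed level, which Nppa leads, was 943 to 3034 CPM in TAC at day 7 and 1906 to 3352 CPM in TAC at day 4. TAC day 4 replicate 2 and TAC day 7 replicate 2 lay nearest to the sham libraries on the first principal component of the 12 libraries. Clock genes changed with the day in both arms, as described further on.

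The TAC effect differed between days 4 and 7 in few genes. Of 13816 genes, 7 were called for the difference, 0.0507% of those tested. For 6 of them, 0.0434%, the effect was higher at day 7: the transcription factor genes Ets1 and Bcl6b, the endothelial protocadherin gene Pcdh12, the neuron navigator gene Nav3, the semaphorin receptor gene Plxnd1 and 2900026A02Rik. Of these 6, Ets1 is on the list of endothelial identity used below and Plxnd1 on that of tip cells. For Lcn2, which encodes the iron-siderophore carrier lipocalin 2, the effect was lower at day 7, the only gene in that direction, 0.00724%. At an unadjusted p under 0.05 the effect was higher at day 7 for 532 genes, 3.85%, and lower for 519, 3.76%. Both effects themselves were broad: TAC differed from sham in 3394 genes at day 4, 24.6%, and in 3201 at day 7, 23.2%, with 10.1% called lower at day 4 and 10% at day 7. Of the 1810 genes called at both days, 1805 had the same direction. These were 53.3% of the calls of day 4 and 56.5% of those of day 7. In bulk tissue, a change in the number of cells of a type and a change in RNA per cell cannot be told apart.

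Ets1, an ETS family factor of endothelial and immune cells, had the smallest p. It was at 95.8, 88.8 and 98.2 CPM in sham and at 92.4, 94.2 and 97.5 CPM in TAC at day 4. At day 7 it was at 73.8, 70.0 and 76.0 CPM in sham and at 116, 111 and 129 CPM in TAC. The groups overlapped at day 4, and at day 7 every TAC library lay above every sham library. The effect was 0.01 ± 0.07 at day 4 and 0.70 ± 0.07 at day 7, a difference of 0.69 ± 0.10 (adjusted p = 0.0126). Both arms moved: from day 4 to day 7 Ets1 rose by 0.33 ± 0.07 among TAC hearts (adjusted p = 0.0212) and fell by 0.36 ± 0.07 among sham hearts (adjusted p = 0.0147).

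Bcl6b, a transcriptional repressor of the BCL6 family, had the largest gain among the 6 genes. In sham libraries it was at 32.4, 34.2 and 40.4 CPM at day 4 and at 30.6, 27 and 29.7 CPM at day 7. In TAC libraries it was at 21.8, 31.4 and 34.7 CPM at day 4 and at 49.7, 53.2 and 62.8 CPM at day 7. The TAC libraries of day 7 were thus the highest of the 12, and the libraries of the other groups ran from 21.8 to 40.4 CPM. The effect went from -0.28 ± 0.14 to 0.92 ± 0.14, a difference of 1.20 ± 0.20 (adjusted p = 0.0352), and Bcl6b rose by 0.91 ± 0.14 among TAC hearts (adjusted p = 0.00188), while its change among sham hearts was -0.29 ± 0.14 (adjusted p = 0.569).

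Pcdh12 encodes VE-cadherin-2, an adhesion protein of endothelial junctions. It was at 44.8, 36.1 and 35.4 CPM in sham and at 26.1, 36.4 and 30.7 CPM in TAC at day 4. At day 7 it was at 24.9, 27.8 and 26.2 CPM in sham and at 38.6, 43.0 and 46.7 CPM in TAC. The TAC libraries tended to lie below sham at day 4, with an overlap, and all lay above sham at day 7. The difference was 1.02 ± 0.18 (adjusted p = 0.0352), and Pcdh12 fell by 0.56 ± 0.13 among sham hearts (adjusted p = 0.0365), while its change of 0.46 ± 0.12 among TAC hearts was not called (adjusted p = 0.0689).

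Plxnd1 encodes plexin D1, the receptor for semaphorin 3E that guides sprouting vessels. It was the most abundant of the 7 genes, at 221 to 245 CPM in sham and 204 to 253 CPM in TAC at day 4. At day 7 it was at 191, 170 and 188 CPM in sham and at 272, 322 and 304 CPM in TAC. The TAC libraries of day 7 exceeded all others. The effect went from 0.00 ± 0.09 to 0.71 ± 0.09, a difference of 0.70 ± 0.13 (adjusted p = 0.0366).

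Nav3, a microtubule-binding protein of the navigator family, was at 29.7 to 34.3 CPM in all day 4 libraries of either operation. At day 7 it was at 29.1, 23.2 and 24.8 CPM in sham and at 38.9, 46.8 and 54.1 CPM in TAC, with no overlap. The difference was 0.83 ± 0.15 (adjusted p = 0.0352). For 2900026A02Rik, a gene model without a further name in the tables, the sham libraries were at 51.7 to 65.9 CPM over both days. Its TAC libraries were at 51.8, 53.6 and 61.0 CPM at day 4 and at 75.9, 76.6 and 71.7 CPM at day 7, again the highest of the 12. The difference was 0.62 ± 0.11 (adjusted p = 0.0352).

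Lcn2 went the other way. It was at 1.67, 2.19 and 3.45 CPM in sham and at 18.2, 13.4 and 8.82 CPM in TAC at day 4. At day 7 it was at 4.58, 6.74 and 5.77 CPM in sham and at 3.48, 6.25 and 3.29 CPM in TAC. The groups were apart at day 4 and overlapped at day 7. The effect went from 2.45 ± 0.36 to -0.41 ± 0.35, a difference of -2.86 ± 0.50 (adjusted p = 0.0352), and Lcn2 fell by 1.65 ± 0.33 among TAC hearts (adjusted p = 0.0142). Its change among sham hearts was 1.21 ± 0.38, not called (adjusted p = 0.192). Lcn2 is made by neutrophils as well as by stressed tissue cells. The neutrophil calprotectin genes S100a8 and S100a9 had effects of -0.59 and 0.01 at day 4, neither called. The summed level of a list of 11 neutrophil genes without Lcn2 was 14.05 to 14.5 CPM in TAC at day 4, above the 9.91 to 11.5 CPM of sham at day 4, the 6.03 to 7.87 CPM of sham at day 7 and the 6.65 to 8.97 CPM of TAC at day 7. Of these 11 genes 2 were at 0 in TAC at day 4. The part of neutrophils in the level of Lcn2 was not tested.

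**Figure D1:**
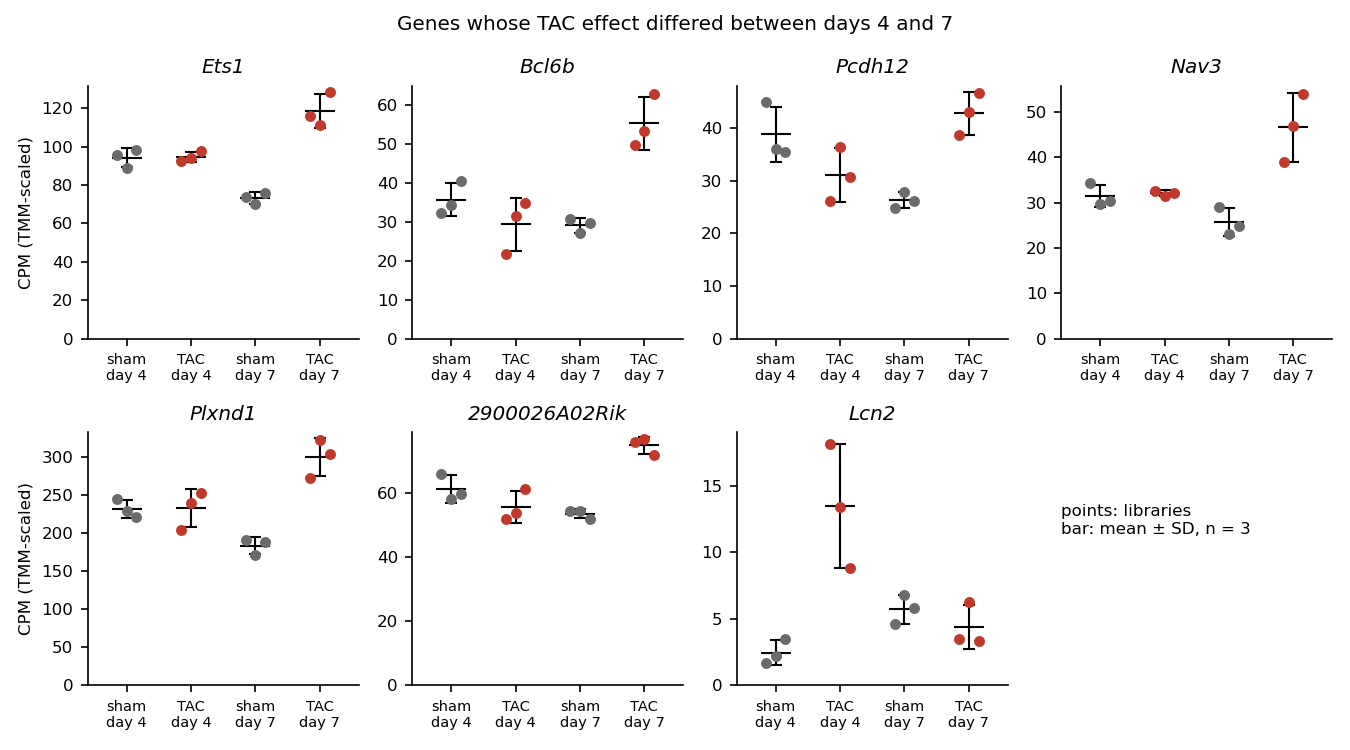
CPM (TMM-scaled, linear axis from 0) of the 7 genes called for the difference, in sham (grey) and TAC (red) libraries of days 4 and 7. Points are libraries, and bars are the mean ± SD of n = 3. For 6 genes the 3 TAC libraries of day 7 lie above the 3 sham libraries of day 7, and for Lcn2 the 3 TAC libraries of day 4, at 8.82 to 18.2 CPM, lie above all others.

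For all 7 genes both arms contributed to the difference. Among the 6 with a higher effect at day 7, the median change from day 4 to day 7 was 0.44 among TAC hearts and -0.31 among sham hearts. The 6 were chosen by the difference on these same libraries, so the next values describe them and carry no support: all were called higher in TAC at day 7 (13.1% of all genes were) and none at day 4, and their TAC and sham libraries of day 7 did not overlap (TAC lay above sham in 20.5% of all genes). Over the whole time course their effects peaked at day 7. Bcl6b and Pcdh12 were called lower in TAC at day 2, at -0.51 ± 0.14 and -0.60 ± 0.13 (adjusted p = 0.046 and 0.0128), beside 0.854% of all genes. No effect of the 6 was called at day 21, beside 1.09% of all genes, where they ran from -0.09 ± 0.14 for Bcl6b to 0.38 ± 0.10 for Nav3. The change of their effects from day 7 to day 21, which shares the day 7 libraries, was called for none, beside 0.0651% of all genes, and the smallest adjusted p was 0.0643 for Bcl6b and Plxnd1. Lcn2 was called higher in TAC at days 2 and 4, beside 3.73% and 14.4% of all genes, and had an effect of 0.17 ± 0.38 at day 21.

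**Figure D2:**
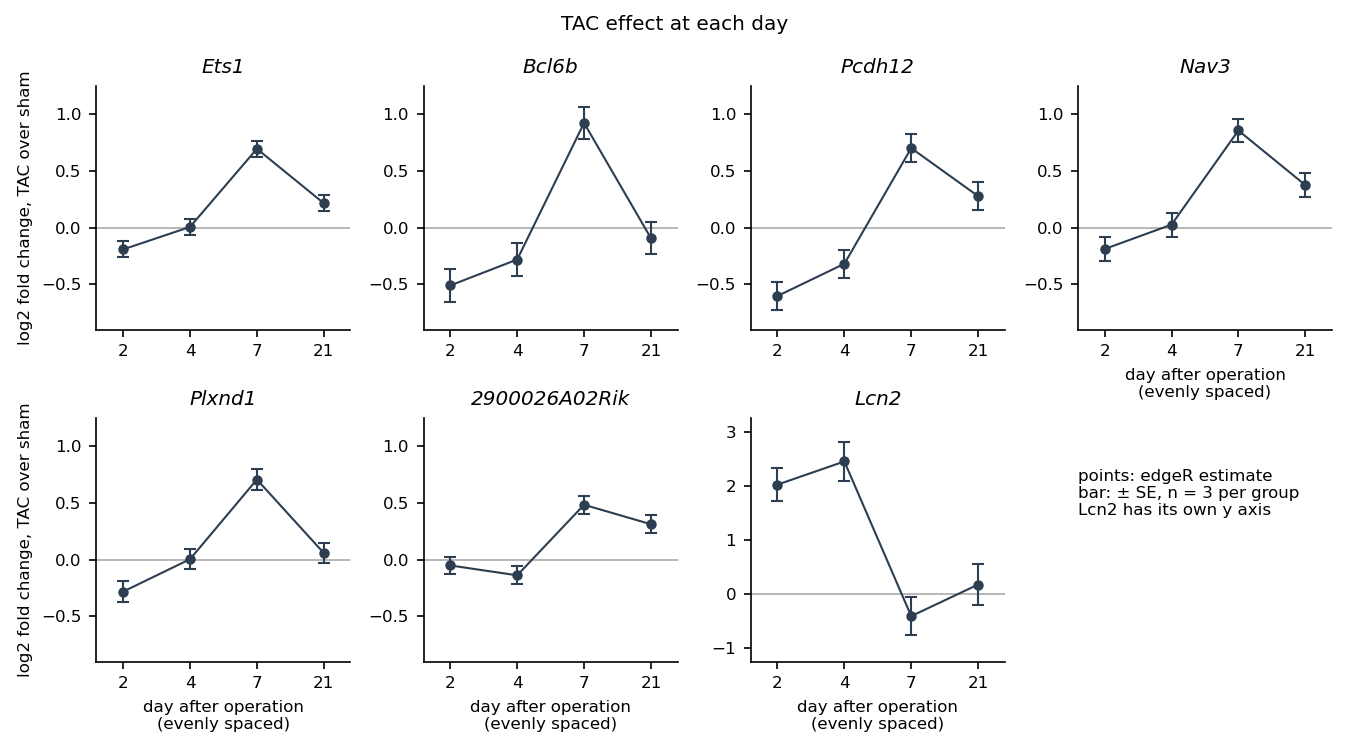
Effect (log2 fold change of TAC over sham, ± SE) of the 7 genes at days 2, 4, 7 and 21, with days evenly spaced and n = 3 libraries per group. The 6 genes with a positive difference reach their highest effect at day 7, between 0.48 and 0.92, and Lcn2 has its highest at day 4, at 2.45.

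Promoters are shown for 2 called genes, one of each direction, as the sequence context of the contrast in direction between Plxnd1 and Lcn2. They are from a set of RefSeq promoters (GRCm38.p6) at hand, in which 3 of the 7 called genes were found. They run from 250 bases before to 50 bases after the gene's start. The Plxnd1 window is chr6:115994956-115995255 on the minus strand and the Lcn2 window chr2:32387690-32387989 on the minus strand. Capitals mark matches, on either strand, to the core of ETS binding motifs (GGAA). They also mark a GC box of the type that KLF factors bind (GGCGTGG), for which both strands were searched. The motifs did not overlap each other.
Plxnd1: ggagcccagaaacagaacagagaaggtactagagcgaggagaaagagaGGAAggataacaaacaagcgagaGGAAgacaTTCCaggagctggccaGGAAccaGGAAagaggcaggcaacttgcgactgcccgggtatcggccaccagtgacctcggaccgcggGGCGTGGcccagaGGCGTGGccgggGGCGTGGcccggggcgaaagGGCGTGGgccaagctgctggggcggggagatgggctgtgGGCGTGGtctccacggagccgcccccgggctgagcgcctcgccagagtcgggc
Lcn2: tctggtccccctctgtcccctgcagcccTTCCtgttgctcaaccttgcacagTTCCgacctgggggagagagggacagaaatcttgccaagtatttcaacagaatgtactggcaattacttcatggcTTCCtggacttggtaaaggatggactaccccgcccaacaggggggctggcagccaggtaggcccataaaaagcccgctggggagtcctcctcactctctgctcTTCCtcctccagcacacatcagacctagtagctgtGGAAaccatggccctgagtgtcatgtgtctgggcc
GGAA occurred 5 times in each window. Of 32851 RefSeq promoters of the same length, 96% held it, with a median of 3 matches. GGCGTGG occurred 5 times in Plxnd1 and was not in the window of Lcn2, and 8.55% of promoters held it. The other called gene found, 2900026A02Rik, had a higher effect at day 7, as Plxnd1 did. GGCGTGG occurred 0 times in both of its windows, and GGAA occurred 3 and 0 times. The motifs thus did not follow the direction of the difference in these genes. The motifs were chosen after the sequences were seen, and a match is a description, not a site.

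The genes with the next smallest p were not called, with adjusted p of 0.0887 to 0.14. They included genes whose TAC level was higher at day 7 and genes whose effect turned negative. Nrp2, the co-receptor of semaphorins and VEGF-C, was at 93.5, 102 and 125 CPM in TAC at day 4 and at 135, 167 and 179 CPM in TAC at day 7, and at 84.5 to 100 CPM in sham at either day. Its difference was 0.71 ± 0.15 (adjusted p = 0.14). Sox13, a SOX family factor, differed by 0.57 ± 0.12, the ubiquitin ligase gene Rnf144a by 0.77 ± 0.15, the tetraspanin gene Tspan13 by 0.92 ± 0.20 and the deubiquitinase gene Usp43 by 1.55 ± 0.34. On the other side stood Sra1, the gene of a steroid receptor RNA activator, at -0.79 ± 0.16, the receptor gene Gpr146 at -0.46 ± 0.10, the JNK3 gene Mapk10 at -0.81 ± 0.18, Tmtc1 at -0.76 ± 0.17 and the lysosomal membrane gene Scarb2 at -0.44 ± 0.10. Gpr146 was called in opposite directions, higher in TAC at day 4 with an effect of 0.20 and lower at day 7 with an effect of -0.26.

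Endothelial genes leaned toward a larger TAC effect at day 7. In a list of 32 genes of endothelial identity the effect was called higher in TAC for 13 at day 7 and for none at day 4, and called lower for 2 at day 7 and 3 at day 4. Over all genes 13.1% were called higher at day 7 and 14.4% at day 4. For the difference, 1 of the 32 was called, Ets1. The median difference was 0.39, 29 were positive, and 18 were positive with an unadjusted p under 0.05, beside a median of 0.00 and 3.85% over all genes tested. Cdh5, the cadherin of endothelial junctions, was at 403 to 454 CPM in sham and at 362, 408 and 415 CPM in TAC at day 4. At day 7 it was at 397 to 428 CPM in sham and at 478, 575 and 620 CPM in TAC, so that the groups overlapped at day 4 and not at day 7. Its difference was 0.55 ± 0.14 (adjusted p = 0.184).

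The adhesion gene Pecam1 (0.35 ± 0.12), the caveolar coat gene Cav1 (0.63 ± 0.16), the junction gene Esam (0.58 ± 0.16) and the guidance receptor gene Robo4 (0.52 ± 0.16) had differences of the same sign that were not called, with adjusted p of 0.229 to 0.424, and all 4 rose in TAC at day 7. Vwf, the gene of von Willebrand factor, went against the list: its effect was 0.01 at day 4 and -0.60 at day 7, where it was called lower, a difference of -0.62 ± 0.21 (adjusted p = 0.435). From day 4 to day 7 the level rose in 11 of the 32 genes among TAC hearts and in none among sham hearts, where 2 fell, beside 0.977% called higher among TAC hearts and 0.355% called lower among sham hearts over all genes.

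Among 18 receptors that steer vessel growth, the effect was called higher in TAC for 9 at day 7 and for none at day 4, beside the 13.1% and 14.4% of all genes. It was called lower for Tek and Tie1 at day 4 and for Flt1 at day 7. The median difference was 0.33, and 14 were positive. With an unadjusted p under 0.05, 9 were positive and none negative, beside 3.85% and 3.76% of all genes. Aplnr, the apelin receptor gene, was at 33.8, 40.0 and 46.8 CPM in TAC at day 4 and at 64.2, 48.8 and 52.1 CPM at day 7, and at 35.5 to 41.3 and 24.6 to 27.6 CPM in sham. The groups overlapped at day 4 and were apart at day 7, and the difference was 0.97 ± 0.26 (adjusted p = 0.246). Tie1, an orphan receptor kinase of endothelium, was called lower in TAC at day 4 (-0.34) and not at day 7 (0.15), with a difference of 0.49 ± 0.15 (adjusted p = 0.345).

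Kdr, the main VEGF receptor gene, had a difference of 0.49 ± 0.17 (adjusted p = 0.469) with no effect called at either day (-0.26 and 0.22). It stood at 280 to 310 CPM in sham at day 4 and at 179 to 219 CPM in sham at day 7, where it fell by 0.62 among sham hearts, whereas the TAC libraries were at 225 to 294 and at 192 to 251 CPM. The positive difference of Kdr thus came with a lower sham level and not with a higher TAC level.

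Genes of tip cells, the leading cells of a sprout, had the highest median of the vessel lists. All 18 tested differences were positive, with a median of 0.49, and Plxnd1 was called. Of the 18, 7 had an unadjusted p under 0.05 (4 to 9 over the settings tried), beside 3.85% of all genes. From day 4 to day 7 the median change was 0.28 among TAC hearts and -0.27 among sham hearts. The lists are not independent: Col4a1, Col4a2, Lamb1 and Nid2 are also on the basement membrane list below. Apln, Angpt2, Dll4, Pgf and Adm are also on the ligand list, and Cxcr4 on that of receptors. The effect was called higher in TAC for 5 of 18 at day 4 and for 12 at day 7, beside the 14.4% and 13.1% of all genes, and lower for 3 at day 4, Dll4, Igfbp3 and Rgcc, and for none at day 7. Trp53i11 differed by 0.66 ± 0.16 and Mcam, the adhesion gene CD146 that pericytes also express, by 0.75 ± 0.24 (adjusted p = 0.168 and 0.409). Among 20 ligands the median difference was 0.06, with members on both sides. Apln, the apelin gene of tip cells, had an effect of -0.02 at day 4 and rose in TAC at day 7 by 1.05 (difference 1.07 ± 0.50). Figf, the VEGF-D gene, and Hgf, the hepatocyte growth factor gene, rose at day 4 by 1.05 and 1.58 and had effects of -0.05 and 0.26 at day 7 (differences -1.10 ± 0.37 and -1.31 ± 0.58). Adjusted p of these 3 differences were 0.636, 0.443 and 0.622. The TAC effect on Vegfa was -0.17 at day 4 and 0.03 at day 7, neither called.

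**Figure D3:**
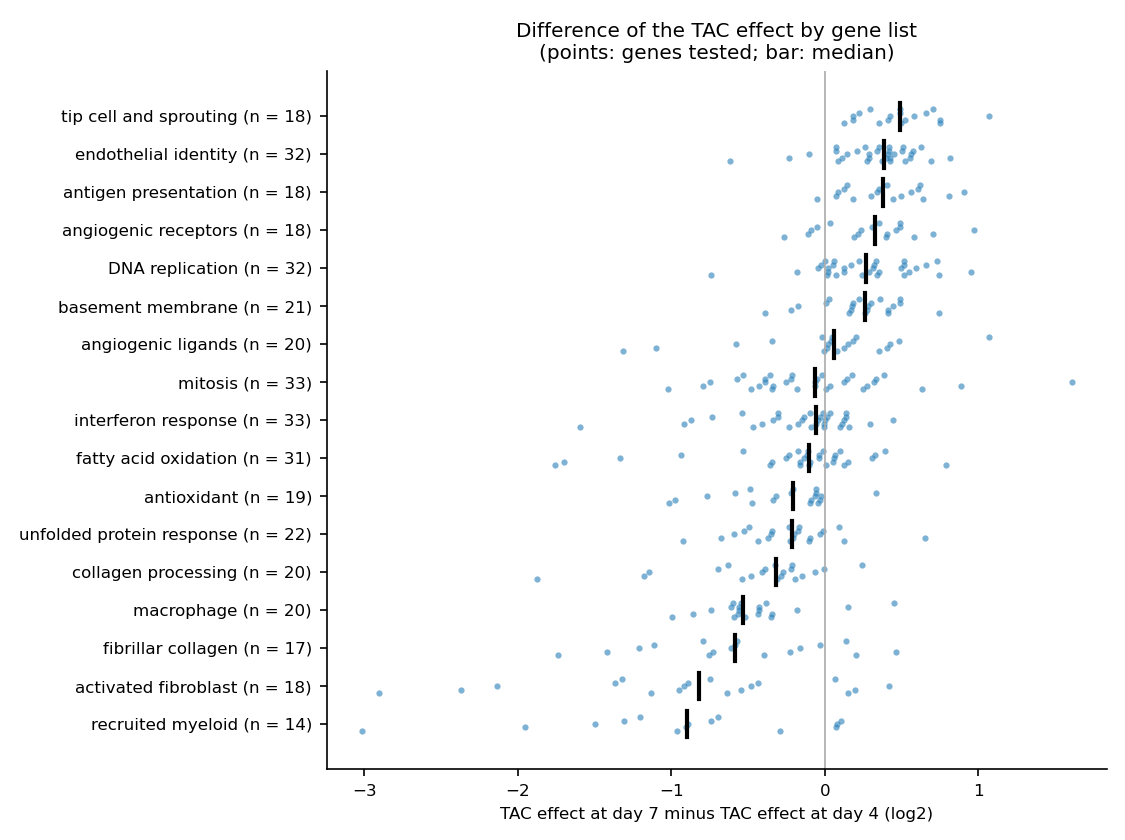
Difference of the log2 TAC effect (day 7 minus day 4) for the tested genes of 17 lists, with the median of each list as a black bar. Medians run from 0.49 for tip cell genes to -0.90 for the recruited myeloid list, which also holds matrix genes. The medians of the vessel lists and of the list of fibrillar and other collagens lie on opposite sides of 0. Some lists share genes.

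No gene of the matrix lists was called for the difference. Of 21 basement membrane genes, 18 had a positive difference (median 0.26), 4 of these with an unadjusted p under 0.05, beside 3.85% of all genes. That count ran from 1 to 7 over the settings tried. The effect was called higher in TAC for 10 at day 4 and 13 at day 7, beside the 14.4% and 13.1% of all genes, and lower for Lama5 at day 4. Col4a1, a chain of the main type IV collagen, was at 585 to 720 CPM in sham and 988 to 1533 CPM in TAC at day 4, and at 501 to 575 CPM in sham and 1183 to 1614 CPM in TAC at day 7. It rose at both days, without overlap, by 0.90 and then by 1.39, and the difference was 0.49 ± 0.25 (adjusted p = 0.699). Col4a2 differed by 0.41 ± 0.21, the laminin gene Lama4 by 0.30 ± 0.13 and the nidogen gene Nid2 by 0.49 ± 0.22. Col4a3, a minor type IV chain, had an effect of -0.17 at day 4 and rose in TAC at day 7 by 0.57 (difference 0.74 ± 0.28, adjusted p = 0.501).

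All 17 genes of a list of fibrillar and other collagens were called higher in TAC at both days, beside 14.4% and 13.1% of all genes. The median effect was 2.75 at day 4 and 2.32 at day 7. Not all are fibrillar: Col15a1 and Col18a1, of the basement membrane zone, differed by 0.20 and -0.16. The network collagen genes Col8a1 and Col8a2 differed by -0.73 and -1.42. The median difference was -0.58, 14 of 17 were negative, and none had an unadjusted p under 0.05. Over the settings tried 0 to 8 of the 17 were negative with such a p. Col1a1 was at 131 to 165 CPM in sham and at 2066, 885 and 2341 CPM in TAC at day 4, and at 171 to 223 CPM in sham and at 2147, 320 and 826 CPM in TAC at day 7. The TAC libraries of day 7 spread over a wider range than those of day 4, and every TAC library exceeded every sham library. The difference was -1.11 ± 0.74 (adjusted p = 0.839), and that of Col3a1 was -0.57 ± 0.65. Of 20 genes of collagen processing 19 had a negative difference (median -0.32), among them the prolyl hydroxylase gene P4ha2 at -0.39 ± 0.14 (adjusted p = 0.469).

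A list of 18 activated fibroblast genes had a median difference of -0.82. It had 3 members with an unadjusted p under 0.05, all negative, beside 3.76% of all genes. They were the matrix gene Tnc (-2.91 ± 1.32) and the contractile genes Cnn1 (-2.14 ± 0.83) and Tagln (-1.37 ± 0.57), with adjusted p of 0.531 to 0.626. Cnn1 and Tagln are also on a list of pericyte and smooth muscle genes, so their differences cannot be credited to fibroblasts alone. Tnc was at 457, 197 and 491 CPM in TAC at day 4 and at 62.9, 17.6 and 55.5 CPM in TAC at day 7, with sham at 2.02 to 7.31 CPM. It fell by 3.07 from day 4 to day 7 among TAC hearts and was still above every sham library. Postn, the periostin gene of activated fibroblasts, differed by -1.13 ± 0.85, and the protease inhibitor gene Timp1 by -2.30 ± 1.42 (adjusted p = 0.867 and 0.811).

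Macrophage genes had a lower median effect at day 7 than at day 4, and none was called for the difference. In a list of 20 general macrophage genes 19 rose in TAC at day 4 and 15 at day 7, beside 14.4% and 13.1% of all genes. The median effect was 1.44 at day 4 and 0.88 at day 7, the median difference -0.54, 18 were negative, and 4 had an unadjusted p under 0.05, beside 3.76% of all genes. Over the settings tried the median ran from -0.74 to -0.28 and that count from 1 to 11. Cd68, a lysosomal protein of macrophages, was at 11 to 12.2 CPM in sham and at 55.2, 29.3 and 34.1 CPM in TAC at day 4, and at 10.4 to 13.6 and 20.4, 18.2 and 21.2 CPM at day 7. The groups were apart at both days, and Cd68 fell by 0.98 among TAC hearts. The difference was -0.999 ± 0.37 (adjusted p = 0.501). The complement gene C1qc (-0.60 ± 0.24), the lysozyme gene Lyz2 (-0.86 ± 0.35) and the CSF1 receptor gene Csf1r (-0.44 ± 0.19) had differences of the same sign, with adjusted p of 0.57 to 0.607.

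In a list of 14 genes of recruited myeloid cells the median difference was -0.90, with 11 negative and 3 positive. Gpnmb, a gene of lipid-handling macrophages, was at -1.95 ± 0.90 (adjusted p = 0.633). It was the only member with an unadjusted p under 0.05, beside 3.76% of all genes. The 3 positive members, Plac8, Chil3 and Cd14, were at 0.08, 0.10 and 0.07, and Ly6c2 was at -0.29. This list also holds the matrix genes Fn1, Vcan, Thbs1 and Spp1, at -0.89, -0.69, -0.96 and -3.02. Fn1 is on the activated fibroblast list as well, so the median cannot be credited to myeloid cells alone. Among 12 resident macrophage genes 11 were negative (median -0.31), led by F13a1 at -0.58 ± 0.18 (adjusted p = 0.386). Of the lysosomal genes, Grn, which encodes progranulin, differed by -0.46 ± 0.14 (adjusted p = 0.358).

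Secreted signals of inflammation went both ways, and of the lists of cytokines and chemokines no gene was called for the difference. Of 23 cytokine and receptor genes 19 had a negative difference (median -0.21), 3 of them with an unadjusted p under 0.05, beside 3.76% of all genes. In TAC 15 of the 23 rose at day 4 and 5 at day 7, beside 14.4% and 13.1% of all genes. Of 18 chemokine genes 8 were positive and 10 negative (median -0.07), 3 of the latter with an unadjusted p under 0.05, beside the same 3.76%. The cytokine gene Il11 had effects of 1.60 and -0.69 (difference -2.29 ± 0.70, adjusted p = 0.359), at 0.162 to 1.66 CPM in all libraries of both days. The macrophage growth factor gene Csf1 had effects of 0.40 and -0.20 (difference -0.60 ± 0.20, adjusted p = 0.435), and the chemokine genes Ccl6 and Ccl9 had 1.13 and 1.17 at day 4 and 0.03 and 0.12 at day 7 (adjusted p of the differences 0.528 and 0.609). At day 7 the TAC and sham levels of Ccl6 were 9.58 to 9.87 and 9.16 to 10.2 CPM, so that the groups overlapped. On the other side, Ccl8 rose in TAC at day 4 by 1.86 and at day 7 by 3.50 (difference 1.65 ± 0.88, adjusted p = 0.742), and Ccl5 had an effect of 0.89, not called, and then rose by 2.37 (difference 1.48 ± 0.81, adjusted p = 0.755).

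None of 18 antigen presentation genes was called for the difference. Of the 18, 17 had a positive difference (median 0.38), 3 with an unadjusted p under 0.05, beside 3.85% of all genes. None was called at day 4 and 4 rose in TAC at day 7, beside 13.1% of all genes, among them the MHC class II gene H2-Aa (-0.10, then 0.81) and the class I gene H2-K1 (-0.03, then 0.58). H2-Aa was at 25.4 to 47.0 CPM in sham at day 4 and at 15.3 to 21.6 CPM in sham at day 7, while TAC was at 28.4 to 32.7 and at 17.8 to 47.2 CPM. Of 14 lymphocyte markers 4 passed the filter, 3 with a positive difference and 1, Cd4, at -0.23 ± 0.57. The 4 had a median difference of 1.38 and a median change of -1.54 among sham and -0.12 among TAC hearts. The B cell receptor genes Cd79a and Cd79b were at 1.66 ± 0.72 and 1.18 ± 0.65 (adjusted p = 0.609 and 0.755). The summed level of the 13 markers in the table was 5.78 to 7.30 CPM in sham and 6.26 to 7.86 CPM in TAC at day 4, and 3.82 to 4.24 CPM in sham and 5.69 to 8.91 CPM in TAC at day 7, with 1 marker at 0 in sham at day 7. Their part in the values of antigen presentation was not tested.

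Interferon response genes had a median difference of -0.06, with 23 of 33 called higher in TAC at day 4 and 18 at day 7. Over all genes 14.4% and 13.1% were. The antiviral GTPase gene Mx1 was the member with the smallest p, at -1.59 ± 0.63 (adjusted p = 0.563).

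No gene of cell division was called for the difference. Of 33 mitosis genes 32 rose in TAC at day 4 and 32 at day 7, beside 14.4% and 13.1% of all genes. Their median effects were 3.19 and 3.03 and their median difference -0.07. The exception at both days was Cenpf, whose effects of -0.93 and 0.68 were not called and differed by 1.61 ± 0.59 (adjusted p = 0.492). Of 32 genes of DNA replication 18 rose at day 4 and 26 at day 7, beside the same shares of all genes. Their median difference was 0.27, with the DNA polymerase alpha gene Pola1 at 0.59 ± 0.24 (adjusted p = 0.579).

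Genes of the unfolded protein response raise the folding capacity of the endoplasmic reticulum. Of 22 such genes 9 rose in TAC at day 4 and 1 at day 7, beside 14.4% and 13.1% of all genes, and Dnajb9 and Herpud1 fell at day 7. The difference was negative for 19 (median -0.22), and 7 of these had an unadjusted p under 0.05, beside 3.76% of all genes. None was called. The chaperone gene Hsp90b1 was at 311 to 346 CPM in sham and at 498, 370 and 474 CPM in TAC at day 4, and at 362 to 459 and 325 to 358 CPM at day 7. TAC was above sham at day 4 and below it at day 7, without overlap at either day, and the difference was -0.68 ± 0.18 (adjusted p = 0.251). The calreticulin gene Calr differed by -0.53 ± 0.16 and the disulfide isomerase gene Pdia6 by -0.59 ± 0.21 (adjusted p = 0.345 and 0.483). The early stress gene Ier3 differed by -0.98 ± 0.25 (adjusted p = 0.229) and the metallothionein gene Mt2 by -0.98 ± 0.34 (adjusted p = 0.454). For both, sham levels rose between the days, by 0.91 and 1.62.

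Genes of fatty acid oxidation were lower in TAC at both days, with 22 of 31 genes called lower at day 4 and 27 at day 7. Over all genes 10.1% and 10% were. The median difference of the 31 was -0.11. The 5 members with an unadjusted p under 0.05 were all negative, beside 3.76% of all genes. They were Pdk4, the kinase that shuts glucose carbon out of the mitochondrion (-1.76 ± 0.51, adjusted p = 0.317), the uncoupling protein gene Ucp3 (-1.70 ± 0.65), the acyl-CoA thioesterase genes Acot1 (-1.33 ± 0.60) and Acot2 (-0.94 ± 0.35) and the carnitine transferase gene Cpt1a (-0.54 ± 0.21). None of the 5 was called at day 4, and all fell in TAC at day 7. Pdk4 was at 246 to 448 CPM in sham and 223 to 461 CPM in TAC at day 4, and at 184 to 622 CPM in sham and 91.7 to 133 CPM in TAC at day 7. The sham libraries of day 7 spread over a wide range, and all TAC libraries of that day lay below them. Genes of oxidative phosphorylation had a median difference of 0.05 over 45 members, none with an unadjusted p under 0.05.

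Most markers of hypertrophy rose at either day. Of 18 tested, 13 were called higher in TAC at day 4 and 12 at day 7, beside 14.4% and 13.1% of all genes. Their median difference was -0.21. Nppb, the gene of brain natriuretic peptide, rose by 1.40 and then by 2.27 (difference 0.87 ± 0.49, adjusted p = 0.771), and Acta1, the skeletal actin gene re-expressed under load, by 3.62 and then by 2.39 (difference -1.23 ± 0.58, adjusted p = 0.642). Mybpc2, a myosin-binding protein of skeletal muscle, differed by -1.38 ± 0.53 (adjusted p = 0.521), and its sham level rose between the days by 1.79. The sodium-calcium exchanger gene Slc8a1 was at 1277 to 1363 CPM in sham and 1672 to 2006 CPM in TAC at day 4 and at 1205 to 1240 and 1121 to 1251 CPM at day 7, so that TAC exceeded sham at day 4 only and the groups overlapped at day 7. Its difference was -0.48 ± 0.17 (adjusted p = 0.478). Gja1, the connexin 43 gene, differed by 0.48 ± 0.15 (adjusted p = 0.358) and fell by 0.83 among sham hearts.

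The change of a level from day 4 to day 7 can be split into its arms, which together make the difference. Among TAC hearts 202 genes were called, 135 higher (0.977%) and 67 lower (0.485%), 1.46% of those tested. Among sham hearts 111 were called, 62 higher (0.449%) and 49 lower (0.355%), 0.803%. Of the 32 genes called in both arms 31 had the same direction, and the clock genes were prominent among them. Arntl, the core activator of the clock, was at 18.3 to 23 CPM in sham and 18.5 to 21.4 CPM in TAC at day 4 and at 0.865 to 2.31 and 1.58 to 4.58 CPM at day 7. It fell by 3.71 ± 0.36 among sham and by 2.87 ± 0.32 among TAC hearts.

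The clock repressor gene Per2 rose by 2.31 ± 0.24 among sham and by 2.00 ± 0.24 among TAC hearts, and the output gene Dbp by 1.44 ± 0.26 and 1.40 ± 0.26. Over 18 clock genes the median change was 0.56 among sham and 0.60 among TAC hearts and the median difference of the TAC effect -0.01, with none called. The clock repressors Bhlhe41 and Bhlhe40 (-0.58 ± 0.19 and -0.48 ± 0.17, adjusted p = 0.399 and 0.469) were the 2 members with an unadjusted p under 0.05, beside 3.76% of all genes. A glucocorticoid target, Fkbp5, rose by 1.30 ± 0.28 among sham hearts and by 0.38 ± 0.26, not called, among TAC hearts (difference -0.93 ± 0.38, adjusted p = 0.584). Of 12 glucocorticoid and fasting genes, which include Lcn2, 5 rose and 1 fell among sham hearts. Among TAC hearts 2 rose and 2 fell. Over all genes 0.449% rose among sham and 0.977% among TAC hearts. The median difference of the 12 was -0.44. The hour of harvest is not in the labels, and its part in the arms or in the difference was not tested.

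**Figure D4:**
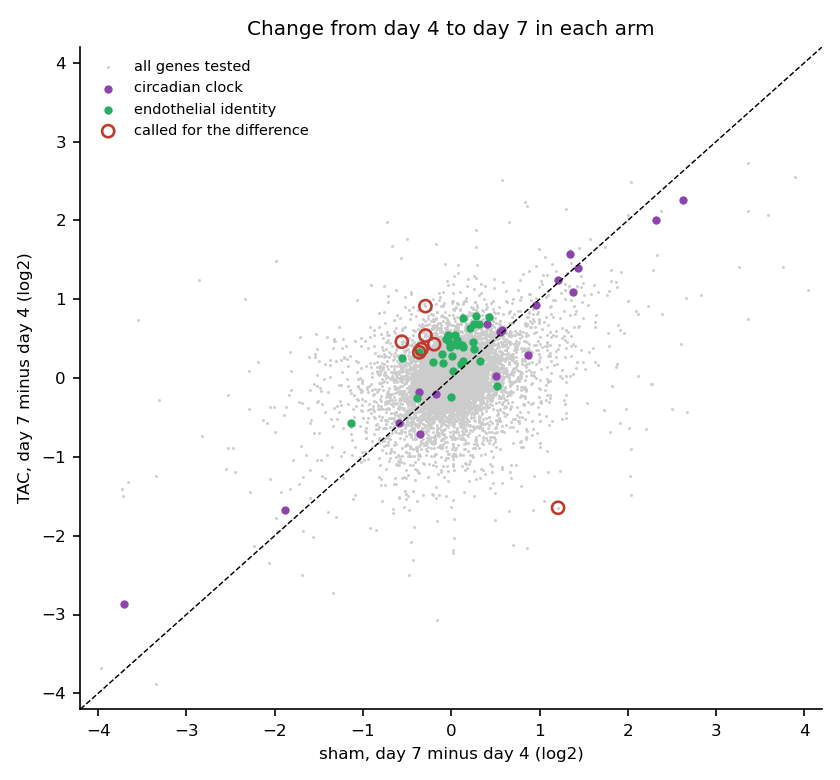
Change of each gene from day 4 to day 7 (log2) among sham (x axis) and TAC hearts (y axis), each estimated from 3 against 3 libraries. On the dashed line both arms change alike and the TAC effect does not differ, and 8 genes lie outside the axes. Clock genes (purple) follow the line from Arntl at -3.71 and -2.87 to Ciart at 2.63 and 2.26, whereas the 7 called genes (red rings) lie off it.

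The number of calls for the difference depended on the libraries and the fit. With each of the 12 libraries left out in turn, 0 to 9 genes were called, and 0 without sham day 4 replicate 3, TAC day 4 replicate 1, sham day 7 replicate 2 or TAC day 7 replicate 3. Ets1 was called in 8 of these 12 fits and the other 6 genes in 1 or 2 each. Without TAC day 7 replicate 1 alone 7 genes were called, of which 5 were among the 7 genes above. 2900026A02Rik and Lcn2 were then not called. Without all 4 libraries above 30 CPM of Myl7, which include that library and 3 sham libraries of days 2 and 21, no gene was called (996 at an unadjusted p under 0.05). With DESeq2 60 genes were called, 37 higher and 23 lower, and 6 of the 7 were among them. Lcn2 was not called with DESeq2, with limma voom or with the replicate number as a block. No setting turned the sign of the 7: the difference stayed within 0.63 to 0.78 for Ets1 and within -3.19 to -2.57 for Lcn2. The median of the endothelial identity list stayed within 0.31 to 0.43, with 13 to 19 of 32 positive at an unadjusted p under 0.05, and that of the collagen list was negative in every setting, from -1.2 to -0.18.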

How the data were processed

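RNA of frozen left ventricle was sequenced on an Illumina NextSeq500 from libraries made with a NuGEN Ovation kit, per the labels' protocols. The submitters' processing notes name TopHat, DESeq and the build hg19 without versions. The symbols are those of mouse genes, which a human build would not yield. The mouse build, annotation, counting tool and use of strand are thus not stated in the sources at hand, and sense and antisense reads cannot be told apart. The authors deposited raw read counts per gene symbol, 24015 genes, and RPKM values (reads per kilobase and 1000000 reads), 23951 genes.

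In R 4.3.3 with edgeR 4.0.16, filterByExpr kept 13816 genes, TMM scaled the libraries, and glmQLFit and glmQLFTest fitted 8 group means to all 24 libraries (16 residual degrees of freedom). Tests were two-sided with Benjamini-Hochberg adjustment over all genes. The biological coefficient of variation was 0.146, and replicates of a group varied 3.52 to 58.9 times more than counting noise (chi-square per degree of freedom), so that the spread between libraries and not depth set the precision. The SE is the size of a log2 value divided by the square root of F. The test was run on simulated counts first.

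Alternatives were RLE scaling, other filters, days 4 and 7 alone, the replicate number as a block, Myl7 as a covariate, leaving out libraries, DESeq2 1.42.0, voom of limma 3.58.1, and limma on log2(RPKM + 1) or log2(RPKM + 0.1). The genes and gene lists were chosen with earlier results of these data known. Genes were named as the called ones, the 10 smallest p in each direction, up to 4 per list by p, and a set of common marker genes. Acot1, Fkbp5, Ciart, Robo4 and Vwf are named beyond that rule, after their values were seen, as are 2900026A02Rik, a gene model that the rule passes over, and any other list member whose p was not among the 4 smallest of its list.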

Additional observations from a re-analysis of the deposited data

Results flagged for a closer look

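The 7 genes called for the difference are set apart here because a test of the difference itself separated the TAC effects of both days. The log2 differences were 1.205 for Bcl6b, 1.021 for Pcdh12, 0.8309 for Nav3, 0.7029 for Plxnd1, 0.6893 for Ets1, 0.6224 for 2900026A02Rik and -2.856 for Lcn2 (edgeR's quasi-likelihood test, adjusted p of 0.0126 to 0.0366). Groups of 3 libraries were too small for a check of single outlying libraries.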

How the results depend on the processing

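Numbers of genes called for the difference were 7 with RLE scaling, a filter of 1 CPM or Myl7 as a covariate, 6 without a filter, 5 with voom, 9 with RPKM and a pseudocount of 0.1 and 10 with RPKM without a filter. They moved by more than 1.5 times to 60 with DESeq2, 12 with RPKM and a pseudocount of 1, 0 with days 4 and 7 alone in the fit (990 at an unadjusted p under 0.05), 0 without the 4 libraries over 30 CPM of Myl7 and 1, Ets1, with the replicate number as a block. Over the single libraries left out they were 0 to 9. Of 18 same-numbered pairs of groups, 2 had a correlation of deviations over 0.1, within -0.151 to 0.534. Both were of TAC at day 4 with TAC at day 7, at 0.534 for replicate 2 and 0.157 for replicate 3, beside 0.0918 for replicate 1. Whether replicate numbers mark a shared batch was not tested.

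For TAC against sham at day 4 (3394 calls) the range without single libraries was 1402, without TAC day 4 replicate 3, to 3910. At day 7 (3201 calls) it was 1270, without TAC day 7 replicate 1, to 4132, and 892 without the 4 Myl7 libraries. For day 7 minus day 4 among TAC hearts (202 calls) it was 56, without TAC day 4 replicate 1, to 224, with 91 without the Myl7 libraries, 427 with DESeq2 and 310 with RPKM and a pseudocount of 1. Among sham hearts (111 calls) it was 41, without sham day 4 replicate 3, to 124, with 201 with DESeq2. The causes were not tested. The difference was followed under these settings for 80 genes, which are not all of those named here. Of its 1914 values none changed sign, 90 fell short of the threshold that the gene passed and 19 passed it where the gene had not.

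Groups of 3 libraries limit these results, since a difference between effects has a larger error than either effect.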

Other observations

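On the RPKM table, which was made with another counting, 12 genes were called for the difference (limma on log2(RPKM + 1)), and they included the 7 called on counts. The further named ones were Fgd5, a nucleotide exchange factor of endothelial cells, at 0.51 on this log2 scale (adjusted p = 0.0382), the lipid kinase gene Pik3c2b at 0.46 (adjusted p = 0.0306), the exchange factor gene Dock4 at 0.48 (adjusted p = 0.0382), the origin recognition gene Orc5 at 0.55 (adjusted p = 0.0255) and Mir669j. Fgd5 stood at a mean of 8.59 RPKM in sham and 7.47 RPKM in TAC at day 4 and at 7.81 and 10.1 RPKM at day 7. Mir669j was listed at 0 in both groups of day 4 and in sham of day 7 and had a mean of 19.4 RPKM in TAC at day 7, and it did not pass the filter on counts. Of 159 genes with a mean of at least 1 RPKM and no count in any library, none was called.

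Of genes chosen after their values were seen, Scd1, the stearoyl-CoA desaturase gene, fell by 4.24 ± 0.96 among sham hearts from day 4 to day 7 (adjusted p = 0.0354) and changed by -0.18 ± 0.87 among TAC hearts, and Elovl6, a fatty acid elongase gene, fell by 3.31 ± 0.77 (adjusted p = 0.0408) and changed by -0.27 ± 0.71. Their differences of the TAC effect, 4.06 ± 1.26 and 3.03 ± 1.04, were not called (adjusted p = 0.367 and 0.451). Wt1, a transcription factor gene of the epicardium, had an effect of 0.21 at day 4 and rose in TAC at day 7 by 1.20 (difference 0.99 ± 0.32, adjusted p = 0.393), at 6.47 to 7.30 CPM in TAC at day 4 and 7.94 to 12.6 CPM at day 7. Of the epicardial and mesothelial list 2 of 8 genes passed the filter on low counts, with a median difference of -1.06. The other one, the keratin gene Krt18, went the opposite way: it rose in TAC at day 4 by 5.92 and had an effect of 2.82, not called, at day 7 (difference -3.10 ± 2.36, adjusted p = 0.869). The summed level of the list was 7.66 to 12.4 CPM in TAC at day 4 and 12.9 to 13.6 CPM at day 7.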
